A study of Mus musculus with 5 samples.

Results

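The genes described here encode chains of the receptors for interleukin-3 (IL-3), GM-CSF and other cytokines. They are the 9 genes Csf2rb, Csf2rb2, Csf2ra, Il3ra, Csf3r, Il2rg, Il4ra, Il6st and Ifngr1. The array's annotation names 18193 genes with a probe set of their own, and 8 of the 9 are among them. All 16 probe sets listed for the 9 genes were taken: 15 are listed for 1 of the genes, and 1 is listed for both Csf2rb and Csf2rb2. Il2rg, the common gamma chain, had no probe set listed under its name, and its level was not analysed here. Of the other 8 genes, 5 passed an expression filter (a log2 value of 2.75 or more on some array, the 60th percentile over the table) and 3 did not (Csf2ra, Csf3r and Il6st).

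The cells were 32D, a mouse myeloid progenitor line that ordinarily needs IL-3 to survive and divide. They carried a stably integrated retroviral FLT3-ITD construct. FLT3 is a growth factor receptor with kinase activity found on early blood cells. An ITD, a repeated stretch within its coding sequence, leaves the kinase active without ligand. Each of the 5 constructs, labelled ITD78, ITD598, ITD602, ITD611 and ITD613, was measured on 1 Affymetrix mouse genome array of total RNA, and the labels do not explain these numbers. Before lysis all cells were kept in starvation for 3 h and then given a tyrosine kinase inhibitor, whose name and dose the labels do not state, for 1 h. No cells without a construct and none without inhibitor were analysed here, and the labels do not say whether the transduced cells were clones or pools. The series compares FLT3-ITD variants with one another. With 1 array per construct there is no replicate spread, so no test was made and no p-value is given. Array medians lay between 1.99 and 2.06, and no depth applies to arrays: their number limits the precision.

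In the receptors for IL-3, IL-5 and GM-CSF a ligand-binding alpha chain pairs with a signalling chain that carries the JAK kinases. Alpha chains for IL-3, IL-5 and GM-CSF share the common beta chain encoded by Csf2rb, and mice have an additional beta chain, encoded by Csf2rb2, that works with the IL-3 alpha chain only. Binding activates JAK2, which phosphorylates the STAT5 factors, the same factors that FLT3-ITD activates. The signal is dampened by phosphatases, adaptor inhibitors and ubiquitin ligases.

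The beta chain genes were the members with the widest range. Csf2rb2 and Csf2rb were both lowest on the ITD613 array, next lowest on ITD78, and higher on ITD598, ITD602 and ITD611. Il4ra had the same low pair of arrays with a smaller range, while Il3ra and Ifngr1 ranged less than 1.5-fold. Of the 5 genes above the filter, 3 (Csf2rb2, Csf2rb and Il4ra) ranged at least 2-fold (1 on the log2 scale) over the 5 arrays, against 10.4% of all 9621 genes above the filter. The median range of the 5 was 1.08, and that of all 9621 genes was 0.43. The list is short and was chosen with results of these arrays known, so these figures describe it and support nothing further. Values up to 3.74 lie in a range where at least 100 probe sets of an array can share 1 value, and differences that reach into it cannot be sized.

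**Figure D1:**
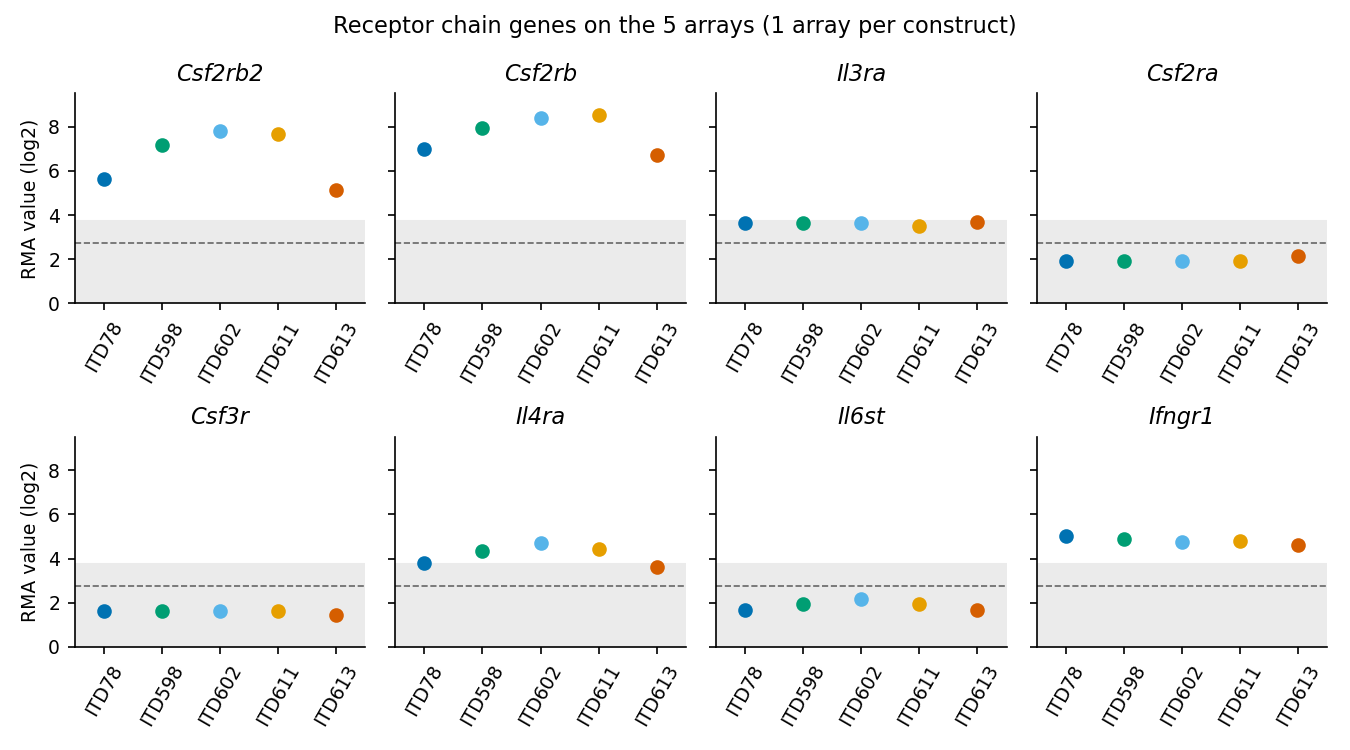
RMA values (log2, y axis) of the 8 receptor chain genes with a probe set, 1 point per array and construct (x axis), on the probe set that stands for each gene. The grey band marks values up to 3.74, the dashed line the expression filter at 2.75, and the points of Csf2rb2 and Csf2rb are lowest on ITD613 and next lowest on ITD78.

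Csf2rb2, the beta chain dedicated to IL-3, read 5.62 on ITD78, 7.16 on ITD598, 7.81 on ITD602, 7.66 on ITD611 and 5.12 on ITD613 (log2 levels, probe set 1449360_at). The ITD613 and ITD78 arrays were thus both low, and the other 3 lay together well above them. The ITD613 level was 1.94 (log2; 3.84-fold) under the mean of the remaining 4 arrays, which was 7.06 ± 1.00 (SD over 4 constructs, not replicates). Directly between arrays, ITD613 was 4.10-fold below ITD598, 5.80-fold below ITD611 and 6.44-fold below ITD602. ITD78 was 2.90-fold, 4.09-fold and 4.54-fold below the same 3 arrays. The step between ITD78 and ITD598, 1.53, was the widest gap in the order. It exceeded the SD of the differences between those 2 arrays over all genes above the filter (0.33), which is the only measure of spread available and includes real differences between constructs. ITD602 and ITD611 differed by 0.15, less than that SD for their pair (0.22). ITD613 and ITD78 differed by 0.50, slightly more than theirs (0.42), and ITD598 and ITD611 by 0.50, more than theirs (0.18). Of the 9621 genes, 74 ranged at least as far as Csf2rb2, itself included.

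The sequence before the Csf2rb2 start is shown because this gene had the widest range of the members, and that of Il4ra because its order of arrays was the same. Both are the 250 bases upstream of the RefSeq start in GRCm38.p6, printed 5′ to 3′ on the gene's strand. Csf2rb2 lies on the minus strand (chr15:78305722-78305971) and Il4ra on the plus strand (chr7:125552021-125552270). Capitals mark matches, on either strand, to a STAT motif (TTCNNNGAA), a GATA factor motif (GATA) and a PU.1 motif (GAGGAA).
Csf2rb2: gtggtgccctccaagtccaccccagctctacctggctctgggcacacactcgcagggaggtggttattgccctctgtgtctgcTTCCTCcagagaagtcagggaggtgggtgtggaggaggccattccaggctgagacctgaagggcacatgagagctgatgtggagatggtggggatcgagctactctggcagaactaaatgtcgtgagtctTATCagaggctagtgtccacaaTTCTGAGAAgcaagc
Il4ra: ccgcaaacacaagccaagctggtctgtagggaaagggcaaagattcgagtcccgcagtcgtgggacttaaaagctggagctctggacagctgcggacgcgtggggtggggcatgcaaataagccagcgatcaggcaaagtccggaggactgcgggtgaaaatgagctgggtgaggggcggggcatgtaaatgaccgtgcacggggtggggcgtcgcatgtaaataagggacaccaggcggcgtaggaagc
The Csf2rb2 window held 1 match to each motif, and none of them overlapped. The STAT match began 15 bases before the start, the GATA match 37 and the PU.1 match 167. Over 32851 windows of the same length in the RefSeq promoter table, 7.02% held the STAT motif, 53.6% the GATA motif, 23.3% the PU.1 motif and 0.935% all 3. The Il4ra window held none of the 3, as did 33.4% of all windows. Of the other members, Il3ra had 1 GATA match, Csf2ra 2 PU.1 matches and Csf3r 1, while Il2rg, Il6st and Ifngr1 had none. The table matched 8 of the 9 genes and did not hold Csf2rb. A match is a run of letters and not a measured binding site.

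Csf2rb, the common beta chain, read 7.00 on ITD78, 7.96 on ITD598, 8.39 on ITD602, 8.54 on ITD611 and 6.71 on ITD613 (log2 levels, probe set 1455660_at). ITD613 and ITD78 were again the low pair, with ITD611 the highest. The ITD613 level was 1.27 (log2; 2.40-fold) below the mean of the other 4, 7.97 ± 0.69 (SD over 4 constructs). ITD613 was 2.38-fold below ITD598, 3.21-fold below ITD602 and 3.56-fold below ITD611. ITD78 was 1.94-fold below ITD598, 2.62-fold below ITD602 and 2.90-fold below ITD611. The gap between ITD613 and ITD78 was 0.30, less than the SD of differences of that pair (0.42), and the gap between ITD602 and ITD611 (0.15) was also below theirs (0.22). The steps from ITD78 to ITD598 (0.96, SD of the pair 0.33) and from ITD598 to ITD602 (0.43, SD 0.23) were larger than the spread of their pairs.

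The second Csf2rb probe set, 1421326_at, gave the same order of arrays. It read 4.27 on ITD78, 5.15 on ITD598, 5.69 on ITD602, 5.94 on ITD611 and 4.23 on ITD613. Its range of 1.72 was close to the 1.83 of the first. The probe set listed for both beta chain genes, 1450200_s_at, read 3.20, 3.26, 3.42, 3.47 and 2.97 on ITD78, ITD598, ITD602, ITD611 and ITD613. It kept the order of Csf2rb, but all of its values lie in the low range, where its range of 0.49 cannot be sized. The beta chain genes are closely similar copies and lie next to each other on mouse chromosome 15, with no protein-coding gene between them in the RefSeq table. How far the probe sets named for 1 of them also bind the transcript of the other was not tested, so their separate sizes are uncertain.

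**Figure D2:**
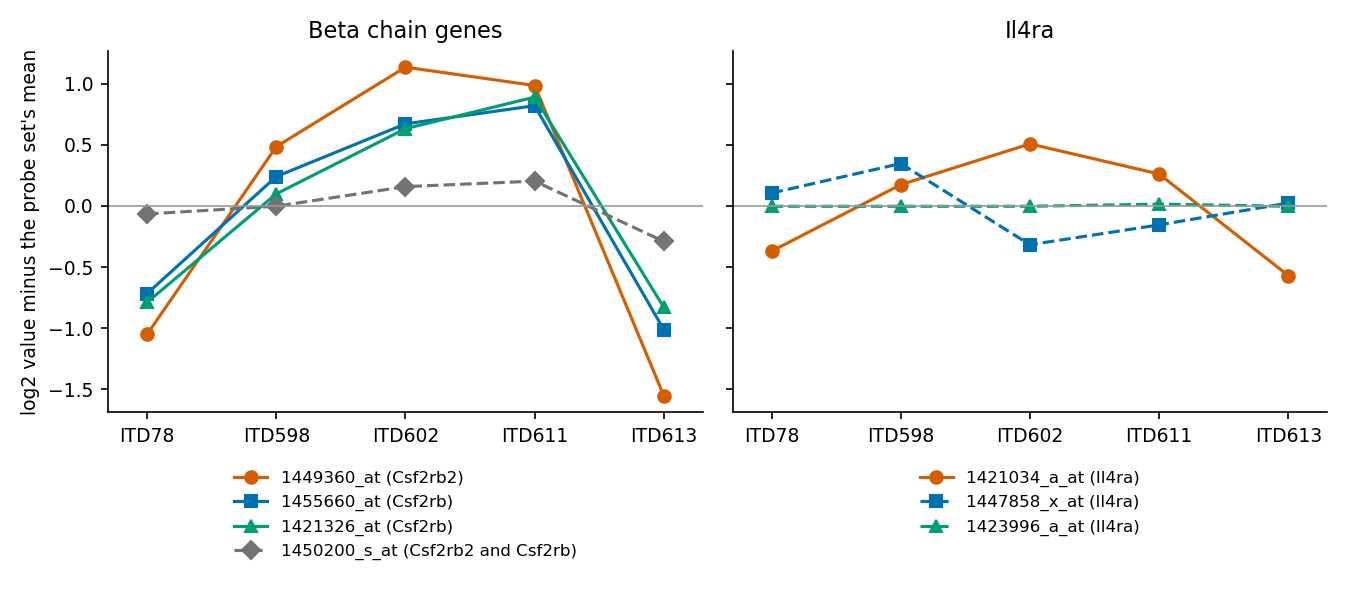
Log2 value of each probe set minus its own mean over the 5 arrays (y axis), by array (x axis), for the beta chain genes (left) and Il4ra (right). Lines join values of 1 probe set, and dashed lines have all values below 3.74. The 3 probe sets named for a single beta chain gene are below 0 on ITD78 and ITD613 and above 0 on the others, and for Il4ra 1 of 3 probe sets shows this.

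The alpha chains and Csf3r gave little signal. Il3ra, the IL-3-binding chain, read 3.62 on ITD78, 3.66 on ITD598, 3.62 on ITD602, 3.50 on ITD611 and 3.69 on ITD613. These values span 0.19 and all lie just under 3.74, and no neighbours in their order differed by more than the SD of their pair. Where the beta chain genes were lowest, on ITD613, Il3ra was at its highest value. Csf2ra, the GM-CSF-binding chain, read 1.90 on 4 arrays and 2.16 on ITD613, and its other probe set stayed between 1.55 and 1.67. Csf3r, the receptor for G-CSF, read 1.61 on 4 arrays and 1.46 on ITD613. Csf2ra and Csf3r were below the filter on every array, so a difference between constructs could not be seen for them here.

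Il4ra, the IL-4-binding chain shared by the receptors for IL-4 and IL-13, read 3.81 on ITD78, 4.35 on ITD598, 4.69 on ITD602, 4.44 on ITD611 and 3.61 on ITD613 (1421034_a_at). ITD613 and ITD78 were the lowest of the 5, in the order seen for Csf2rb2. The range was 1.08, and 845 of the 9621 genes ranged at least as far. The ITD613 value lay under 3.74, in the low range where a difference cannot be sized. With such values raised to 3.74, the range was 0.95 and the ITD613 difference from the mean of the rest -0.58, both short of 2-fold, so that Il4ra then leaves the 3 genes ranging at least 2-fold. The other 2 Il4ra probe sets were below 3.74 throughout: 1447858_x_at was lowest on ITD602 (2.55) and highest on ITD598 (3.22), and 1423996_a_at stayed between 1.53 and 1.55. With the mean of the 3 probe sets the range was 0.36, and that of 1421034_a_at was 0.83 without the ITD602 array and 0.88 without ITD613.

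Il6st and Ifngr1 serve other cytokines. Il6st, the gp130 chain shared by receptors of the IL-6 family, read 1.68 on ITD78, 1.93 on ITD598, 2.16 on ITD602, 1.93 on ITD611 and 1.67 on ITD613. It was below the filter on all 5 arrays, as were its other 3 probe sets. Ifngr1, the ligand-binding chain of the interferon-gamma receptor, read 5.00 on ITD78, 4.88 on ITD598, 4.76 on ITD602, 4.82 on ITD611 and 4.62 on ITD613. Its lowest value was on ITD613 and its highest on ITD78, but their difference was less than the SD of that pair (0.42). The whole range was 0.39 (1.31-fold), and no neighbours in the order were further apart than the SD of their pair.

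**Figure D3:**
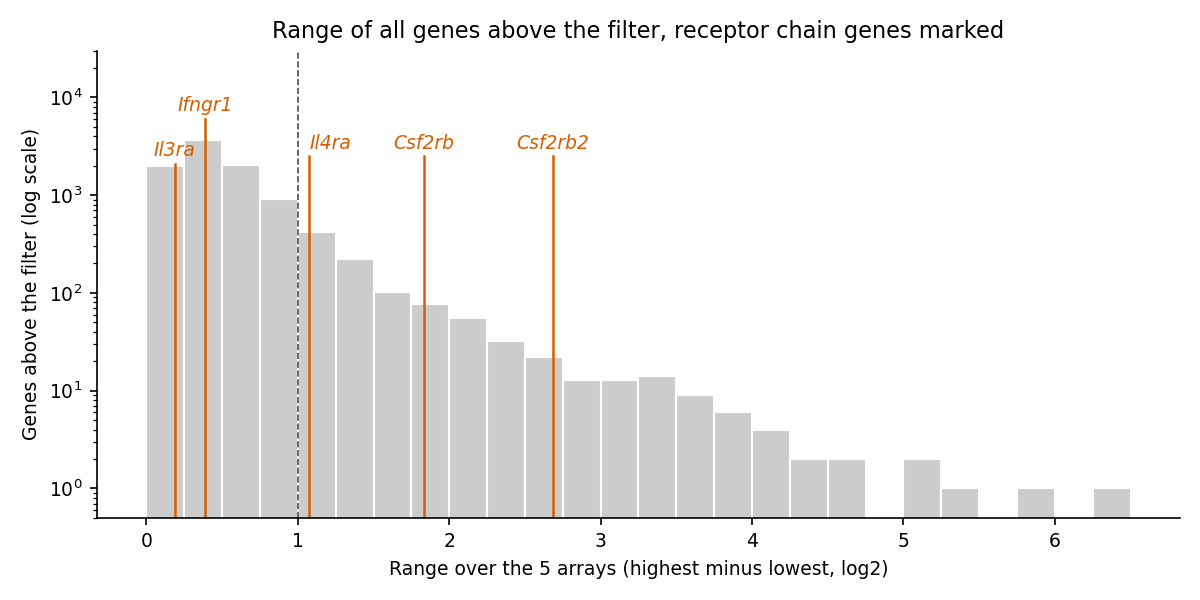
Number of genes above the filter (y axis, log scale) by range over the 5 arrays (highest minus lowest, log2, x axis), with the 5 receptor chain genes above the filter marked by vertical lines. Csf2rb2 (2.69), Csf2rb (1.83) and Il4ra (1.08) lie right of the dashed line at 2-fold, and Ifngr1 (0.39) and Il3ra (0.19) lie left of it.

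Counted in pairs of arrays, the differences of at least 2-fold separated ITD613 and ITD78 from the other 3 constructs. On ITD613, 2 of the 5 genes above the filter (Csf2rb and Csf2rb2) were at least 2-fold lower than on ITD598, against 2.85% of the 9621 genes. Against ITD611 these 2 genes also passed 2-fold (2.83% of genes), and 3 with Il4ra than on ITD602 (3.92%). On ITD78, Csf2rb2 alone was at least 2-fold lower than on ITD598 (0.935% of genes). Csf2rb2 and Csf2rb were so than on ITD602 (1.52%) and than on ITD611 (0.873%). Between ITD613 and ITD78 none of the 5 genes differed 2-fold, against 2.96% of genes in either direction. None did so between ITD598 and ITD602 (0.26% of genes), ITD598 and ITD611 (0.125%) or ITD602 and ITD611 (0.218%). Against the mean of the other 4 arrays, 2 of the 5 (Csf2rb2 and Csf2rb) were at least 2-fold lower on ITD613 (2.35% of genes) and 1 (Csf2rb2) on ITD78 (0.457%). Both arrays lay below each of ITD598, ITD602 and ITD611 for Csf2rb2, Csf2rb and Il4ra, 3 of 5 genes, and for 22.8% of all genes. These comparisons share arrays and are not independent of one another.

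Genes most like each of the 3 wide-ranging members were found by the distance between profiles over the 5 arrays after each gene's mean was removed (Euclidean, log2). Fcgr1, the high-affinity IgG receptor of macrophages, was nearest to Csf2rb2 (distance 0.32), with levels of 3.87 on ITD78, 5.25 on ITD598, 5.83 on ITD602, 5.48 on ITD611 and 3.06 on ITD613. It was followed by Asz1 (0.38), Glipr1 (0.41), the myeloid lectin gene Clec5a (0.53) and the IL-18 receptor accessory chain gene Il18rap (0.55), and Csf2rb came 21st (0.84). Nearest to Csf2rb were Btla (0.24), an inhibitory receptor of lymphocytes, Mpnd (0.32), Pstpip1 (0.36), Akr1c13 (0.38) and Cd320 (0.41). Seen from Csf2rb, Csf2rb2 came 144th (0.84) and Il4ra 127th (0.81). Seen from Il4ra, Csf2rb came 3116th (0.81) and Csf2rb2 8929th (1.56). Profiles were not scaled, so genes with a like order of arrays but unlike ranges lie apart, and these ranks do not compare patterns alone. Nearest to Il4ra were Cyb5b (0.08), Spi1 (0.10), Fndc3b (0.10), Thyn1 (0.10) and the chaperone gene Pdia4 (0.11). Spi1 encodes PU.1, a transcription factor of myeloid cells, and read 3.94 on ITD78, 4.41 on ITD598, 4.70 on ITD602, 4.46 on ITD611 and 3.63 on ITD613. Profiles of 5 values are short and the nearest genes changed with the settings: without the ITD613 array, 1 of the 5 remained for each of the 3 genes.

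The partner and related receptor chains were a list of 27 genes. A probe set was listed for 24, and 11 were above the filter. On ITD613, 3 of the 11 lay 2-fold or more below the other arrays' mean (2.35% of all genes) and none 2-fold above it (3.18%). The median range of the 11 was 0.88, against 0.43 for all genes. Il18r1, the IL-18-binding chain, read 4.73 on ITD78, 5.44 on ITD598, 5.59 on ITD602, 5.44 on ITD611 and 3.63 on ITD613, with ITD613 lowest and ITD78 next lowest. Il1r1, the signalling receptor for IL-1, read 3.67, 4.51, 4.74, 4.69 and 3.33 on the same arrays, with ITD78 and ITD613 both low. Il2ra, the alpha chain of the IL-2 receptor, read 3.05, 2.62, 4.30, 3.47 and 1.90, mostly in the low range, with its highest value on ITD602. With values below 3.74 raised to that level, the ITD613 difference was -0.68 for Il1r1 and -0.14 for Il2ra. With the probe sets of each gene averaged it was -0.57 and -0.76, so neither passed 2-fold in either setting. Ifngr2, the partner of Ifngr1, read 2.96, 4.19, 4.08, 3.98 and 3.47, so that ITD78 was lowest, but only 1 of its 2 probe sets had the same sign on ITD613.

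Among the 15 ligands only Il6 and Osm passed the filter, and the gene for IL-3 itself was not among them. Il3 read 0.67 on ITD78, ITD598 and ITD602, 0.49 on ITD611 and 1.10 on ITD613, and Csf2, the gene for GM-CSF, stayed between 1.09 and 1.48. Il6 read 3.78 on ITD78, 3.12 on ITD598, 3.09 on ITD602, 3.12 on ITD611 and 5.43 on ITD613. It was thus high on ITD613, by 2.16 (log2) over the mean of the other 4 arrays, or by 1.68 with low values raised to 3.74. Il15 ranged 1.16 but was below the filter, with its highest value of 2.22 on ITD613.

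Some of the JAK kinases and STAT factors went the other way from the beta chain genes on ITD613, by less than 2-fold except for Stat5a. A probe set was listed for 10 of 11 genes, and 8 were above the filter. On ITD613, 1 of the 8, Stat5a, lay 2-fold or more above the other arrays' mean (3.18% of all genes), and none lay 2-fold below (2.35%). Stat5a read 4.07 on ITD78, 3.35 on ITD598, 3.66 on ITD602, 3.34 on ITD611 and 4.89 on ITD613. Stat5b read 5.65, 5.10, 5.50, 5.38 and 6.28 on the same arrays, so that on these probe sets both STAT5 genes were highest on ITD613 and next highest on ITD78. Stat5a was under 3.74 on ITD598, ITD602 and ITD611, so its differences from these arrays cannot be sized. With low values raised to 3.74, its difference was 1.07 on ITD613 and 0.04 on ITD78. Averaged over the probe sets of each gene, the ITD613 difference was 0.65 for Stat5a and 0.45 for Stat5b, both short of 2-fold. The ITD78 difference was then 0.13 for Stat5a and -0.13 for Stat5b. Both STAT5 probe sets end in _a_at, and neither gene had a value without probe sets ending in _x_at, _s_at or _a_at. Stat4 read 2.43, 3.37, 3.98, 3.71 and 2.54, low on ITD78 and ITD613 but mostly below 3.74. Jak2, the kinase bound to the beta chain, ranged only from 7.15 on ITD598 to 7.58 on ITD613, and Jak1 from 6.01 on ITD613 to 6.32 on ITD611.

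The adaptors and kinases downstream of the beta chain showed less. A probe set was listed for 13 of 15 genes and 12 were above the filter, with a median range of 0.36. None was 2-fold from the mean of the other 4 on ITD613 (2.35% of all genes lower, 3.18% higher). The widest range was that of Fes, a tyrosine kinase of myeloid cells, which read 4.47 on ITD78, 5.40 on ITD598, 5.57 on ITD602, 5.40 on ITD611 and 4.23 on ITD613. On ITD613 its difference from the mean of the rest was -0.98, with ITD78 and ITD613 the low pair as for the beta chain genes. It passed 2-fold with its probe sets averaged (-1.13), after quantile normalization, against the median of the other arrays (-1.17) and without the ITD78 array (-1.23). It stayed short of 2-fold with median centring (-0.94) and without the ITD598 (-0.92), ITD602 (-0.86) or ITD611 array (-0.92). The Fes probe set ends in _x_at, and Fes had no value without probe sets ending in _x_at, _s_at or _a_at.

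Inhibitors of receptor signalling made up a list of 12, all with a probe set and 11 above the filter, with a median range of 0.74. On ITD613, 2 of the 11 lay 2-fold or more below the other arrays' mean (2.35% of all genes) and none 2-fold above (3.18%). Ptpn6, the phosphatase SHP-1 that acts on these receptors, read 7.21 on ITD78, 7.49 on ITD598, 7.30 on ITD602, 7.49 on ITD611 and 6.30 on ITD613. Sh2b3, the adaptor LNK that restrains JAK2, read 4.25, 4.35, 4.45, 4.21 and 3.16 on the same arrays. For both, ITD613 was the lowest on these probe sets. The Ptpn6 probe set ends in _x_at, and without such probe sets the difference from the other arrays' mean was -1.38 on ITD613 and -0.40 on ITD78. For Sh2b3 it was -0.58 with low values raised to 3.74 and -0.71 with its probe sets averaged, short of 2-fold.

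**Figure D4:**
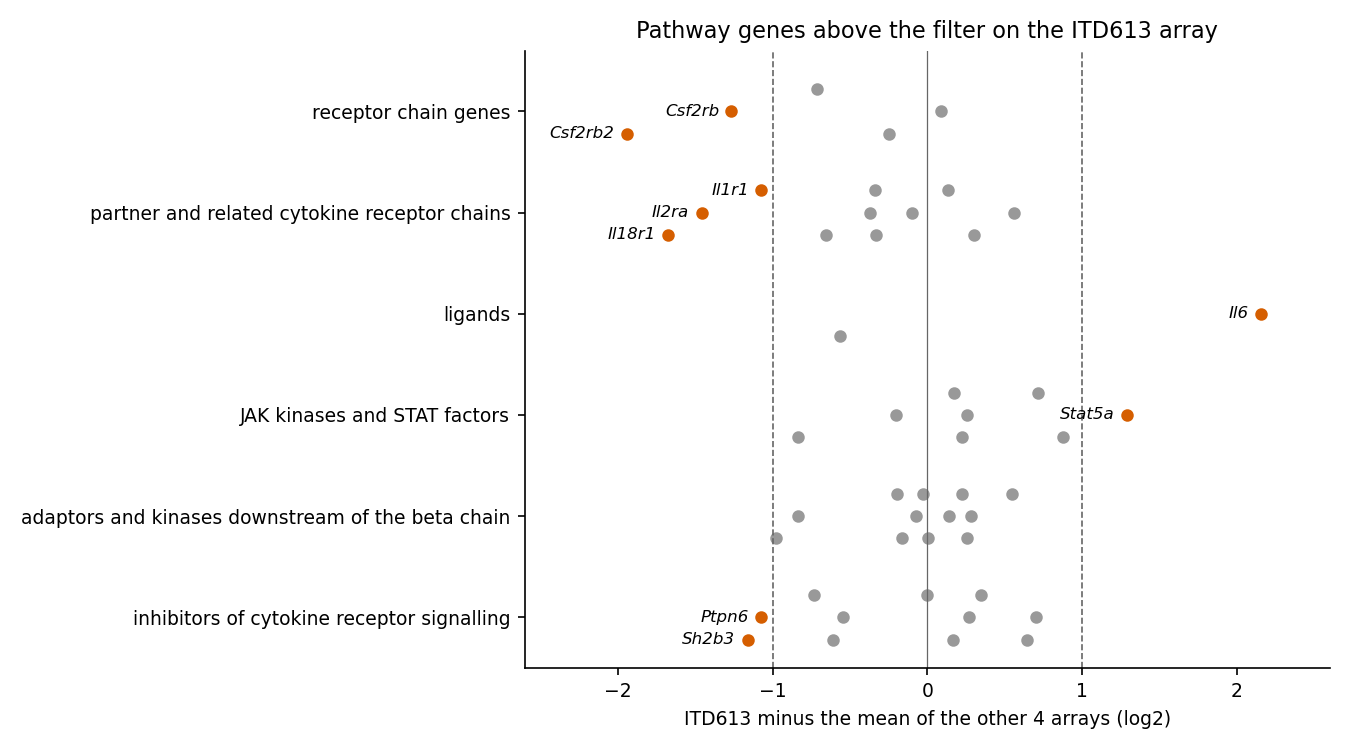
ITD613 minus the mean of the other 4 arrays (log2, x axis) for each gene above the filter, by list (y axis, with the vertical offset within a list for legibility only). Orange points are at least 2-fold from that mean, marked by dashed lines: Csf2rb2, Csf2rb, Il18r1, Il2ra, Il1r1, Ptpn6 and Sh2b3 below it, and Il6 and Stat5a above it.

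Markers of blood cell types went both ways on ITD613 and ITD78. Of 8 myeloid progenitor markers, Mpo, Ctsg, Prtn3, Myb and Spi1 passed the filter, while Elane, Kit and Cebpa did not on any array. Ctsg, Prtn3 and Spi1 had ITD613 and ITD78 as their low pair, with Ctsg at 7.42, 9.09, 9.17, 8.77 and 6.24 in the order ITD78, ITD598, ITD602, ITD611, ITD613. Mpo was lowest on ITD78 (4.52) and Myb highest on ITD613 (9.91). Of 4 mast cell and basophil markers, Ms4a2 was below the filter, Cpa3 was highest on ITD613 (4.56), Fcer1a read 3.96 there and under 3.74 on the other arrays, and Mcpt8 was lowest on ITD78 (2.90). Of 4 macrophage markers, 3 passed (Adgre1, Fcgr1 and Csf1r, not Cd68), and all 3 lay 2-fold or more below the other arrays' mean on ITD613 (2.35% of all genes) and 2 of them on ITD78 (0.457%). Csf1r was under 3.74 on 4 arrays (3.16 on ITD78, 3.66 on both ITD602 and ITD611, 2.54 on ITD613), and 2 of its 3 probe sets shared the sign on ITD613. Adgre1 on ITD78 (3.00) and ITD613 (2.68) and Fcgr1 on ITD613 (3.06) were also under 3.74, so their differences cannot be sized. The summed level of the 4 macrophage markers (log2 of the sum of unlogged values) was 5.12 on ITD78, 7.21 on ITD598, 7.80 on ITD602, 7.50 on ITD611 and 4.54 on ITD613, the order of arrays of Csf2rb2. Of 4 erythroid markers, the factor genes Klf1 and Gata1 ran opposite to it, with Klf1 at 8.44, 7.36, 6.68, 7.08 and 10.01 on the same arrays, Epor ranged 0.16 and Hba-a1 was below the filter. None of the lymphocyte, fibroblast or epithelial markers passed the filter. Summed in the same way, the other blood cell lists with members above the filter had other orders of arrays than Csf2rb2. The myeloid progenitor sum was lowest on ITD78 (9.86, and 10.16 on ITD613). The erythroid sum (10.37) and the mast cell and basophil sum (6.54) were highest on ITD613. The part of these cell type genes in the beta chain differences was not tested, and in bulk RNA fewer cells of a type and less RNA per cell cannot be told apart. Among the sample titles, that of ITD602 holds another date-like string. What it marks is not stated, and it cannot be told apart from the construct.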

How the data were processed

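Total RNA of 32D cells with 1 of 5 FLT3-ITD constructs was measured on 1 Affymetrix mouse genome array each, per the labels. The authors deposited log2 values computed by RMA, which corrects background, normalizes between arrays and summarizes each probe set, per the submitters' processing notes. Version and chip definition are not given in the sources used here. That the logs are to base 2 was read off the values (maximum 13.45). Of 45101 probe sets, 34945 carried a single gene symbol and 932 several. The probe set with the highest mean stood for its gene. Genes whose highest value reached 2.75 (60th percentile) were kept. With 1 array per construct no test was possible. The arithmetic of ranges, differences and 2-fold counts (Python 3.11.15, numpy 2.4.6, pandas 2.3.3) was checked on simulated data. Its planted shifts were large and its noise smaller than the spread between these arrays, so error rates in the real data were not tested.

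Named genes are the 9 receptor chain genes, up to 4 members per pathway list with the widest range of at least 1 (log2), the 5 genes nearest in profile to each wide-ranging member, and cell type markers. Other genes were named after their values were seen (Il3, Csf2, Osm, Jak1 and Jak2). The members and lists were chosen with earlier results of these arrays known. Promoter windows came from RefSeq (GRCm38.p6). Alternatives were other probe set rules, filters, normalizations, thresholds and each array left out.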

Additional observations from a re-analysis of the deposited data

How the results depend on the processing

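The count of receptor chain genes ranging at least 2-fold was 3 or 2 in every alternative at that threshold: 2 (without Il4ra) with the mean of probe sets, without probe sets ending in _x_at, _s_at or _a_at, with low values raised to 3.74, and without the ITD602 or the ITD613 array. At the 1.5-fold threshold 3 passed, as did 31.7% of all genes kept. The share of all genes passing 2-fold also changed: 10.4% in the main setting, 7.67% with the mean of probe sets, 5.77% without the filter and 3.86% with low values raised. The count at least 2-fold lower on ITD613 was 2 in every alternative that gave it, except 3 at a 1.5-fold threshold. The share of all genes lower on ITD613 was not counted for these alternatives. The median range of the members was 0.39 with the mean of probe sets, close to the 0.38 of all genes kept. It was 0.19 with low values raised (all genes 0), a setting in which all 8 members with a probe set pass the filter. Without the filter it was 0.44 (all genes 0.36), and with the stricter filter (75th percentile) 1.45 (all genes 0.44). With 1 array left out it lay from 0.83 to 1.08. The cause was not tested beyond the change in which genes or values entered. All 29 alternative values of the ITD613 difference of Csf2rb2, Csf2rb and Il4ra were below 0: from -2.42 to -1.69, from -1.59 to -1.08 and from -0.88 to -0.23. ITD613 was the lowest array for these genes. The sign was therefore fixed in advance where another array was left out or the median of the other arrays was used, and those values inform on size only. Of 237 alternative values for the members, 206 moved by less than 0.18, the SD of differences of the closest pair of arrays. That tally includes Csf2ra, Csf3r, Il3ra and Il6st, whose small ranges left little room to move. The Il4ra range moved from 1.08 to 0.36 with the mean of probe sets. No paired analysis was possible because each construct has 1 array.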

Other observations

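None of the genes next to the beta chain pair on chromosome 15, chosen after the values of the pair were seen, ranged as far as the pair. Ncf4, a subunit of the phagocyte oxidase and the protein-coding neighbour on the Csf2rb2 side, read 5.88 on ITD78, 6.26 on ITD598, 6.55 on ITD602, 6.18 on ITD611 and 5.87 on ITD613, a range of 0.67 with ITD78 and ITD613 the low pair. Ift27 and Mpst, further out on either side, were highest on ITD613 (6.04 and 3.91). Pvalb ranged 0.20 with all values under 3.74, and Mpst was under 3.74 on every array but ITD613. Tex33 and Tst were below the expression filter on every array. For Pvalb, Mpst, Tex33 and Tst a difference between constructs could therefore not be sized.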
